A study of Mus musculus with 13 samples.

Results

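The regions described here were the KAP1 peaks of Hepa 1.6 cells, a mouse hepatoma line, that lay in H3K9me3 beside the start of a protein-coding transcript. KAP1 (also TRIM28, encoded by Trim28) is a corepressor without DNA binding of its own, brought to DNA chiefly by KRAB zinc finger proteins (KZFPs). It serves as a scaffold for the histone methyltransferase SETDB1, which deposits H3K9me3, and for HP1 proteins that read this mark, and the resulting heterochromatin is best known over transposable elements, over the 3′ ends of KZFP genes and at imprinting control regions, where the KZFP ZFP57 binds a methylated hexamer on 1 parental allele. H3K27ac is found at active promoters and enhancers, and H3K4me1 at enhancers and the flanks of promoters; both are called active marks below.

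The peaks were chosen by the authors' own lists: a KAP1 peak had to share at least 1 bp with an H3K9me3 region, to share none with an H3K27ac or H3K4me1 region, and to have its centre within 1 kb of the start of a protein-coding transcript (mm9, GENCODE M1). This selection gave 435 of the 12470 KAP1 peaks (3.49%), which were 9.86% of the 4412 that met the rule on marks at any distance and 12.8% of the 3411 KAP1 peaks near starts. KAP1, H3K9me3, H3K27ac, H3K4me1 and the distance to the start therefore describe these peaks and are not findings about them; the polymerase lists, the DNA sequence, the side of the start and the identity of the genes were not used by the rule. The peaks just inside the limit had centres 987, 982 and 975 bp from a start (at Stac2, Zfp935 and Ntn1, with KAP1 scores of 59.7, 81.6 and 2041), and those just outside lay at 1010, 1031 and 1036 bp, with scores of 307, 827 and 1286.

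KAP1, H3K9me3, H3K27ac and H3K4me1 were mapped by ChIP-seq in cells under standard culture. PolII and PolIII were mapped in cells given a plasmid for a control shRNA, which the study's methods describe as the empty pLKO vector, and in cells given an shRNA against Kap1 (Kap1 KD), all fixed 5 days after transduction and selected with puromycin. Of 13 samples, 8 had a list of peaks or regions and 5 were inputs, with 1 library in each group, so no difference between libraries had a replicate check and no test between conditions was made. The lists carry no read depth, and the intervals given are 95% Wilson intervals of a share of peaks or genes, which cover counting error only, as do the intervals of a difference between 2 shares (Newcombe's method); peaks along a chromosome are not independent replicates. As a check of the label, H3K27ac covered the start (within 250 bp) of 8 of 14 hepatocyte genes, among them Alb, Afp, Hnf4a and Foxa2. It was absent at Ttr, Apoa1, Apoa2, Apob, Apoh and Cebpa. Of 8 genes of other cell types 1 had it (Col1a1), and of all genes 19.95%. Control PolII peaks lay at 2 of the 14 (Foxa2 and Cebpa) and at none of the 8, where 13.15% of all genes had one. The PolII count was thus near the share of all genes and does not bear on the label. At Trim28 itself PolII peaks were present in both control and Kap1 KD cells, and H3K27ac and H3K4me1 lay within 1 kb of its start, without a KAP1 peak or H3K9me3; a peak list does not measure the depth of a knockdown.

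The sequences that recur below are of 3 kinds, and 1 stretch of 200 bases is shown for each of 9 peaks, read from the mm9 genome 5′ to 3′ on the strand of the gene. Each stretch lay wholly in H3K9me3 and in the KAP1 peak, outside annotated untranslated exons, and was the one with the most marked letters; the files give no summits, so the place of KAP1 within a peak is not known. The first set comes from 4 of the 6 imprinted gene peaks that share the top tied KAP1 score, shown because this group stood out among the gene lists, with the ZFP57 hexamer TGCCGC or its reverse complement GCGGCA in capitals. The Inpp5f stretch (chr7:135831485-135831684, plus strand, intron) held 3 hexamers, the Snrpn stretch (chr7:67149404-67149603, minus strand, intron) 3, the Nap1l5 stretch (chr6:58856762-58856961, minus strand, coding exon) 2 and the Mest stretch (chr6:30687808-30688007, plus strand, intron) 2.
Inpp5f: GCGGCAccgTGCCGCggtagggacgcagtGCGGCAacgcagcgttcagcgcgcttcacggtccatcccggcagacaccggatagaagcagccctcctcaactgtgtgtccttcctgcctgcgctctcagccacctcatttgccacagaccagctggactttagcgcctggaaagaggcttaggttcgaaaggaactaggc
Snrpn: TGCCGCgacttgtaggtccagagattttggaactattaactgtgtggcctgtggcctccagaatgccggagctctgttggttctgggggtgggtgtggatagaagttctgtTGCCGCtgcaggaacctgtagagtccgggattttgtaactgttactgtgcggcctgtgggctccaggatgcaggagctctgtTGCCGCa
Nap1l5: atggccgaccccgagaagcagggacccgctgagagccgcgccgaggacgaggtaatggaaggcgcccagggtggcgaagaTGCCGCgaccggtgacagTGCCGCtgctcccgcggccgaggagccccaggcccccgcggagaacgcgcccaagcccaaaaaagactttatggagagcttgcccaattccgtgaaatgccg
Mest: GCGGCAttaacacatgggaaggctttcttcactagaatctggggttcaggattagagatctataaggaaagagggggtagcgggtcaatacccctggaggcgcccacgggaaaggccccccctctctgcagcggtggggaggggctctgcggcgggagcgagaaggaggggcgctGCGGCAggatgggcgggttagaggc

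The second set shows the CpG-rich DNA of developmental and heat shock genes, with every CpG in capitals. The Nkx6-2 stretch (chr7:146768697-146768896, minus strand, upstream of the transcripts) held 25 CpG, the Fzd2 stretch (chr11:102466314-102466513, plus strand, coding exon) 27, the Irx1 stretch (chr13:72101284-72101483, minus strand, upstream of the transcripts) 23 and the Hspa1a stretch (chr17:35108192-35108391, minus strand, coding exon) 32.
Nkx6-2: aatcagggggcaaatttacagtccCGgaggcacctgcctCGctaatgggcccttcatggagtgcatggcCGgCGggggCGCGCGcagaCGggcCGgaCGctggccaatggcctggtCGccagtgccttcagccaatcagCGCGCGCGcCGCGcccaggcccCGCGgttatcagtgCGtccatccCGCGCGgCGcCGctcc
Fzd2: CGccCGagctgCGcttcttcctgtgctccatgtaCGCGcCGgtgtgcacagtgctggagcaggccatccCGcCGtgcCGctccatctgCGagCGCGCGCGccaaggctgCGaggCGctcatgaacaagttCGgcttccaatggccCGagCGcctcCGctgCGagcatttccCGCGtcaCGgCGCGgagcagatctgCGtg
Irx1: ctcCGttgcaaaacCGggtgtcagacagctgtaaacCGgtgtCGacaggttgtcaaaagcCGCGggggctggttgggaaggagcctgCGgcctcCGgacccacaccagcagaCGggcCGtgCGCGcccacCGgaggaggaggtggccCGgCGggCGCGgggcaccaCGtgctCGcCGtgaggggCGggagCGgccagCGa
Hspa1a: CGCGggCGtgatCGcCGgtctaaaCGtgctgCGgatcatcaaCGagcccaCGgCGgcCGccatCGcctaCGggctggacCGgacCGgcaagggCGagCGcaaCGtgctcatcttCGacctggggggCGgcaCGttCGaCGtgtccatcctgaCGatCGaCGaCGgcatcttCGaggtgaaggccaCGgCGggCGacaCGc

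The third is the zinc finger gene Zfp930 (chr8:71752178-71752377, plus strand, coding exon), where the capitals mark the 15 bases that encode the conserved linker between neighbouring C2H2 zinc fingers. This stretch held 3 linkers in 200 bases and 1 CpG, with a GC content of 37.5%, against 68.5% in the Fzd2 stretch.
Zfp930: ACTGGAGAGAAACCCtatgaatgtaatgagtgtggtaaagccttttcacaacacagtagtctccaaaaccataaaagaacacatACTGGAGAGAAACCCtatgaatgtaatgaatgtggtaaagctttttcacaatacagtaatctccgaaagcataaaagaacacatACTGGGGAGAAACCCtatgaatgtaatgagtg

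The 435 peaks had a higher median KAP1 score than the KAP1 peaks in H3K9me3 farther from starts, as did the KAP1 peaks near starts with both H3K9me3 and an active mark. The median KAP1 score, used here only as a rank, was 304 (quartiles 122 and 864), against 124 (75.0 and 263) for the 3977 KAP1 peaks in H3K9me3 alone that lay farther from starts and 95.5 (68.7 and 144) for the 2582 KAP1 peaks near starts with an active mark and no H3K9me3. Of the 435, 246 (56.6%) were in the top 20% of the whole KAP1 list by score, against 28.2% of the peaks in H3K9me3 far from starts, 9.76% of those at active starts and 52.5% of the 40 near starts with both H3K9me3 and an active mark, whose median score was 244. The score is tied at 3100 for 152 peaks of the whole list, of which 16 were among the 435, with 1 more above the tie. The widest H3K9me3 region under a peak had a median width of 1155 bp (quartiles 618 and 1880), against 868 bp far from starts, a description of regions that the rule picked by their overlap with KAP1, and H3K9me3 covered at least 50% of the KAP1 peak in 308 of the 435. The nearest H3K27ac region lay a median of 33308 bp away and the nearest H3K4me1 region 21585 bp, and 106 peaks (24.4%) had either mark within 5 kb, close to the 24.4% of the peaks farther from starts.

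The highest score, 3108, belonged to a peak over Gm9947, a predicted gene, and Msc, which encodes the bHLH repressor musculin (chr1:14744861-14746352). Of the 16 peaks tied at 3100, the 9 nearest to a start included 4 at imprinted genes: Nap1l5 (chr6:58856164-58858038), Mest (chr6:30686479-30689478), Plagl1 (chr10:12809769-12811688), which encodes a zinc finger growth regulator, and Inpp5f (chr7:135830770-135832477). The other 5 were at C1ql4, a secreted C1q-like protein (chr15:98916848-98919580), Lrrc10b (chr19:10530525-10533201), Gm5453 (chr13:99673594-99675171), Obsl1, a cytoskeletal adaptor (chr1:75501619-75503655) and Polrmt, the mitochondrial RNA polymerase (chr10:79201335-79203541). The widest H3K9me3 regions under peaks lay at Zfp316 (16973 bp), Gm13151 (10022 bp), Nnat (9913 bp), Mcts2 (8235 bp) and B3galtl (7644 bp), so 2 of the 5 were on the imprinted list and 1 on the zinc finger list; the peak at Gm13151, on neither, held 11 copies of the sequence that encodes the zinc finger linker. By chromosome, 47 peaks (10.8%) were on chromosome 11 and 40 (9.20%) on chromosome 7, and 2 were on X. Chromosomes 11 and 7 held 9.08% and 5.92% of all KAP1 peaks and 4.24% and 7.7% of the H3K9me3 regions. Their share of the KAP1 peaks near starts, from which the rule chose, was not counted.

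The centres lay inside the gene more often than before it. The rule took either side of the start, yet 323 of the 435 centres were at or downstream of the nearest start and 112 upstream (74.3% downstream, interval 69.9 to 78.1), with a median position of 204 bp into the gene and quartiles at -8 and 494 bp. At active starts 954 of 2582 centres (36.9%) were downstream, with a median of -36 bp. More than 250 bp into the gene lay 201 of the 435 (46.2%) and 216 of the 2582 (8.37%). The share was 20.9% of the 354 at unmarked starts and 37.5% of the 40 with both H3K9me3 and an active mark. The centre fell in a coding exon for 159 peaks (36.6%), in an exon outside the coding sequence for 94 (21.6%), in an intron for 125 (28.7%) and outside transcripts for 57 (13.1%), whereas at active starts 7.44% were in coding exons and 50.1% outside transcripts. H3K9me3, which the rule required at each KAP1 peak and which therefore follows its position, had its highest coverage in the bin centred 250 bp into the gene, at 69.2% of the 435, with an average of 63.3% over the first kilobase of the gene and 45.9% over the kilobase upstream, falling to 5.26% at 4 to 5 kb into the gene and 7.47% at 4 to 5 kb upstream. KAP1 itself averaged 79.1% over the first kilobase and 50.7% over the kilobase upstream.

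**Figure D1:**
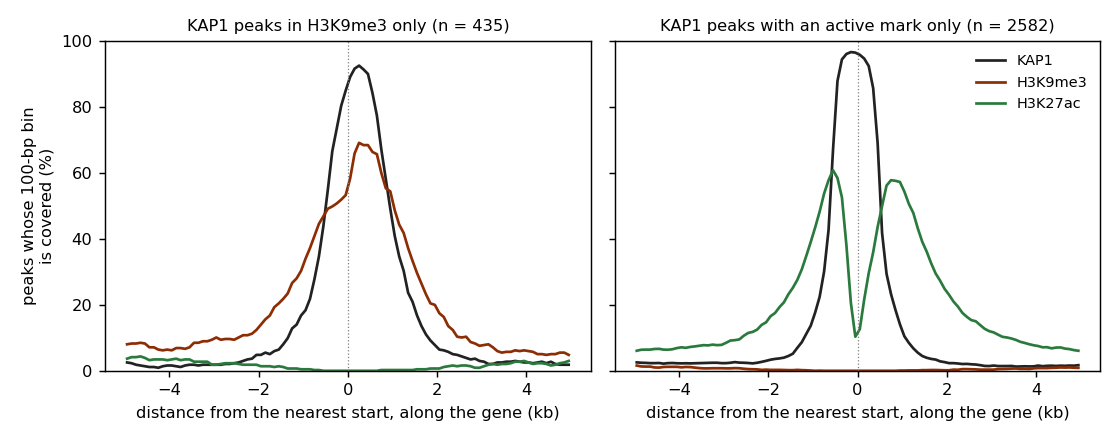
Share of peaks (y axis, percent) whose 100-bp bin at each distance from the nearest start (x axis, kb along the direction of the gene, 0 at the start) was covered for at least 50% by a KAP1 peak, an H3K9me3 region or an H3K27ac region, for the 435 peaks in H3K9me3 alone (left) and the 2582 with an active mark alone (right). KAP1 and H3K9me3 both reach their highest coverage at 250 bp into the gene on the left (92.6% and 69.2%), while on the right KAP1 is highest at -150 bp (96.7%) and flanked by H3K27ac; the shared place of KAP1 and H3K9me3 on the left, the near absence of H3K27ac there and that of H3K9me3 on the right follow from how the peaks were chosen.

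**Figure D2:**
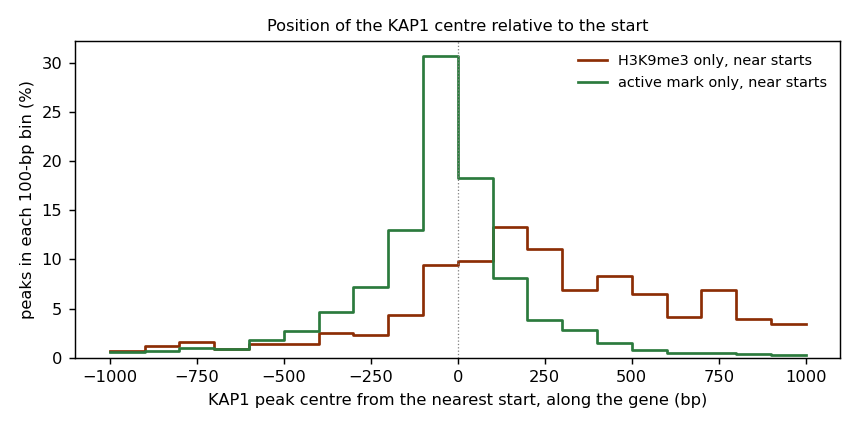
Position of the KAP1 peak centre relative to the nearest protein-coding start (x axis, bp along the gene) as the share of peaks in each 100-bp bin (y axis, percent), for the 435 peaks in H3K9me3 alone and the 2582 with an active mark alone. The first group has a long shoulder inside the gene, with 46.2% of centres more than 250 bp downstream, and the second piles up just before the start, with 8.37% beyond that distance.

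Most peaks were at the 5′ end of a gene, not at an internal start. For 349 of the 435 (80.2%, 76.2 to 83.7) the centre was within 1 kb of the annotated 5′ end of its gene, against 91.5% at active starts (a difference of -11.3 percentage points, -15.4 to -7.60), and 86 were at internal starts of alternative transcripts. Starts on both strands lay within 1 kb of 3.45% of the centres, against 14.5% at active starts. In all, 445 annotated genes had such a peak within 1 kb of a start, and 9 genes had 2 of them, among them the imprinted gene Grb10 (scores 2301 and 215), Wnt7b (1783 and 111), Pax6 (612 and 77.5) and Shox2 (1049 and 261). Read from the side of the mark, 1073 protein-coding genes had H3K9me3 and no active mark within 250 bp of their 5′ end, and a KAP1 peak lay in that window at 334 of them (31.1%, 28.4 to 34.0), where 15.7% of all 22372 genes had one.

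The DNA under most of the peaks was rich in GC and CpG. The central 300 bp had a median GC content of 68.7% (quartiles 62.3 and 73.3), against 48.7% (43.7 and 52.0) for KAP1 in H3K9me3 far from starts and 62.7% (57.0 and 68.0) at active starts. A window with at least 50% GC and an observed to expected CpG ratio of at least 0.6, called island-like here, was found at 355 of the 435 peaks (81.6%, 77.7 to 85.0), at 23.0% of those far from starts (a difference of 58.6 percentage points, 54.5 to 62.2) and at 79.5% at active starts (2.10, -2.10 to 5.82). The median number of CpG in the window was 30 (quartiles 20.5 and 38), against 7 far from starts and 24 (17 and 31) at active starts. The 354 KAP1 peaks at starts with none of the 3 marks were close to the 435. Their median GC content was 66.3%, with a median of 28 CpG and 85.0% of windows island-like. Among the windows of lowest GC content were those at Gm13151 (32.3%), Nnat (35.3%, in a peak of 4066 bp), Zfp950 (35.7%) and Gm17404 (36.0%).

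The ZFP57 hexamer was more frequent than at the other starts. It was present in the central 300 bp of 250 of the 435 peaks (57.5%, 52.8 to 62.0), of 34.5% of those far from starts, of 21.6% at active starts and of 43.8% of the 354 KAP1 peaks at starts with none of the 3 marks; the difference from active starts was 35.8 percentage points (30.9 to 40.6) and from unmarked starts 13.7 (6.68 to 20.5). Among windows of 300 bp centred on the 5′ ends of all 22372 protein-coding genes, 17.7% held it. The hexamer contains a CpG, and among island-like windows alone it was found in 62.8% (57.7 to 67.7) of the peaks described here, 24.4% (22.6 to 26.3) at active starts and 65.1% (61.9 to 68.1) far from starts. Over whole peaks it occurred 1.40 times per kb, against 0.675 at active starts and 0.621 far from starts, and 1.69 times per kb in the 109 peaks of highest score against 1.28 in the 109 of lowest score, with 59.6% and 54.1% of their central windows holding it. A match to 6 letters is not a binding site, and ZFP57 was not mapped in this series.

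**Figure D3:**
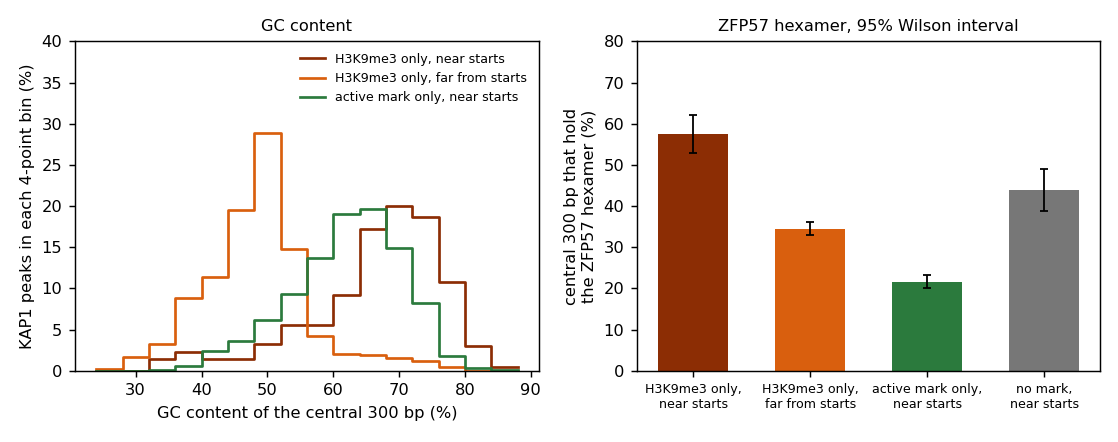
Left, distribution of the GC content of the central 300 bp of KAP1 peaks (x axis, percent) as the share of peaks in each bin of 4 percentage points (y axis, percent), for the 435 peaks in H3K9me3 alone near starts, the 3977 in H3K9me3 alone far from starts and the 2582 at active starts; the medians are 68.7%, 48.7% and 62.7%. Right, share of central windows with at least 1 ZFP57 hexamer on either strand (y axis, percent, bars from 0, error bars the 95% Wilson interval). Of the kinds shown it is highest at 57.5% for the peaks in H3K9me3 near starts and lowest at 21.6% for active starts. The 40 peaks near starts with both H3K9me3 and an active mark, at 17.5%, are not shown.

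Other short motifs differed less from active starts, or were less frequent than there. The E2F site TCCCGC was in 41.4% of the central windows against 38.1% at active starts (a difference of 3.31 percentage points, -1.60 to 8.35) and 27.2% of all promoter windows, and the SP1 box GGGCGG in 52.0% against 62.8% (-10.8, -15.9 to -5.80) and 45.7% of all promoters. The E-box CACGTG was in 6.90% against 12.5% (-5.57, -8.00 to -2.54; 7.29% of promoters), the CRE TGACGTCA in 1.15% against 3.76% (-2.61, -3.65 to -0.954; 2.24% of promoters) and the heat shock element GAANNTTC in 4.14% against 5.46% (-1.32, -3.10 to 1.12; 7.05% of promoters). Both strands were searched for each; the SP1 box and the E2F site end in 4 letters that the ZFP57 hexamer or its complement also holds, so their matches can overlap it. The windows compared, also for the hexamer above, lay at unlike places. Their median position was 204 bp into the gene for the 435 and -36 bp at active starts, and promoter windows were centred on the 5′ end. The effect of position was not tested. In the central windows the SP1, E-box and CRE shares were lower than at active starts beyond their counting intervals. Over whole peaks the SP1 and CRE shares were also lower, whereas the E-box difference included 0 (-2.89 percentage points, -7.24 to 1.81) and the E2F site was more frequent than at active starts (79.1% against 74.1%, a difference of 4.99, 0.599 to 8.95).

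Imprinted genes, of which mainly 1 parental allele is expressed, had the highest share of all listed genes with such a peak, though not of the genes with KAP1 at a start. Of the 50 protein-coding genes of the list, 21 had a KAP1 peak within 1 kb of a start and 15 had one in H3K9me3 without an active mark: 30.0% of the list, where 1.99% of all protein-coding genes had one, and 71.4% (50.0 to 86.2) of its genes with KAP1, where the share was 11.7% of the 3805 genes with KAP1 at a start. The 15 genes were Plagl1, Mest, Nnat, Nap1l5, Snrpn, Inpp5f, Mcts2, Peg10 and Sgce (1 shared peak), Grb10, Fkbp6, Peg3, Gnas, Igf2r and Igf2, with Grb10 holding 2 peaks. Of the 15 peaks, 6 had the tied score of 3100 and the median was 2625, against 283 for the 334 peaks outside the imprinted, developmental and zinc finger lists. The lowest were Gnas (124), Igf2r (89.4) and Igf2 (82.7).

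All 15 peaks at imprinted genes held the ZFP57 hexamer and 14 held at least 2, the exception being Igf2r with 1. Mest held 12 in 3000 bp, Snrpn 10, Nnat 8, Peg3 7, and Plagl1 and Inpp5f 6 each over their whole peaks. The density was 2.57 per kb, against 1.34 in the 334 other peaks, of which 82.6% held at least 1, so the hexamer was common in the rest as well. In the central 300 bp 12 of the 15 held it (80%, 54.8 to 92.95), an interval that includes the 57.8% of the 334. The H3K9me3 region under these peaks had a median width of 2763 bp, against 1102 bp in the 334. Of the 15, 6 were at internal starts, among them those of Inpp5f and Mest, and Mcts2 and Nap1l5 are known as intronless genes inside a host gene.

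Regulators of development were the largest group by number of genes among the lists. On the list of HOX, SOX, PAX, GATA, POU, Iroquois and related factors, 24 of 141 genes (17.0%, 11.7 to 24.1) had a peak, which was 66.7% (50.3 to 79.8) of the 36 with KAP1 at a start. Among those with high scores were Nkx6-2 (3100), a homeobox factor of the ventral neural tube, and Irx1 (2924) and Irx2 (1719), Iroquois factors of tissue patterning, and the list also included Hoxa5, Hoxa7, Hoxa10, Hoxa11 and Hoxa13, Hoxb6 and Hoxb9, Hoxc9 and Hoxc13, Sox2 (1190), a pluripotency and neural progenitor factor, Gata2 (1181) and Pax6. Both lists that were added once the peaks had been seen, and which therefore support nothing by themselves, gave similar shares: 33 of 129 further developmental regulators (25.6%), among them Runx2 (1172), the master factor of bone, Klf15 (1115) and Shox2 (1049), and 14 of 80 WNT, FGF and BMP ligands and receptors (17.5%), led by Fzd2, a WNT receptor (3100), Wnt7b (1783), Fgf3 (1451) and Fgf4 (743). The other lists, the imprinted one included, were also chosen with earlier results of these data known, so their shares are a description only. A gene with 2 identifiers, such as Fgfr1, was counted under both.

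The 72 peaks at genes of these 3 lists had a median score of 393. Their median GC content was the highest of the groups, 69.7%, though close to the 68.7% of the 334 peaks outside the imprinted, developmental and zinc finger lists. Of the 72 windows 65 were island-like, and 59 of the peaks had their centre downstream of the start. Of the 72, 41 windows (56.9%) held the ZFP57 hexamer. On the first list, 6 genes had a KAP1 peak with an active mark alone, Hoxa10 among them beside its peak in H3K9me3, and 6 had one with no mark.

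**Figure D4:**
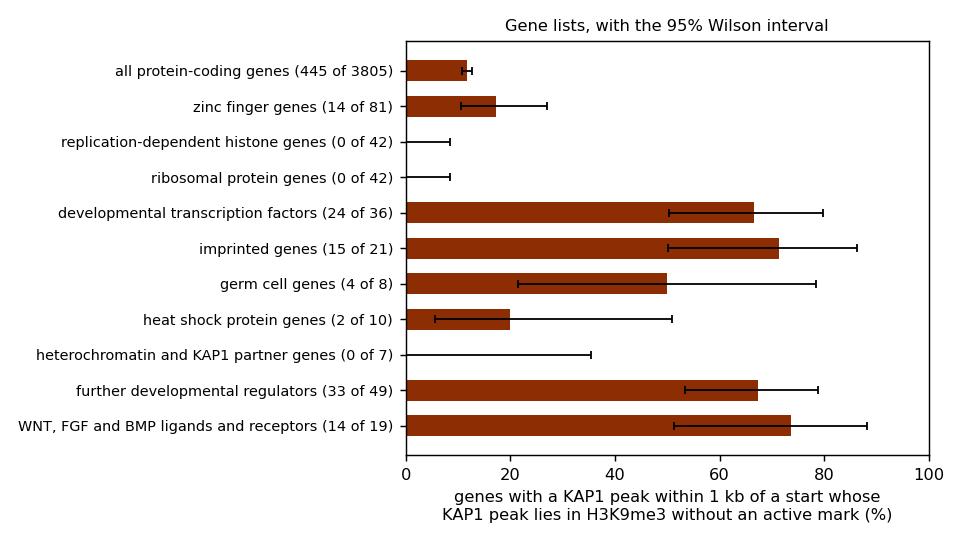
Share of the genes of each list with a KAP1 peak within 1 kb of a protein-coding start that had one in H3K9me3 without an active mark (x axis, percent, bars from 0, error bars the 95% Wilson interval), with both counts beside each name; lists with fewer than 7 such genes are left out. Imprinted genes (71.4%) and the 3 developmental lists (66.7%, 67.3% and 73.7%) stand above all genes (11.7%), and histone, ribosomal protein and heterochromatin genes are at 0; the lowest 2 rows were added once the peaks had been seen.

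Zinc finger genes took a different form. Of 402 genes, 81 had KAP1 at a start, and 62 of these had a KAP1 peak with an active mark alone; 14 (3.48%, 2.09 to 5.76) had a peak in H3K9me3, where 1.99% of all genes did. This was 17.3% (10.6 to 26.9) of those with KAP1, an interval that includes the 11.7% of all genes with KAP1. Zfp316 (chr5:144013987-144018426) and Zfp865 (chr7:4980816-4984152) had the tied score of 3100, followed by Zfp930 (786) and Zfp532 (430), and the remaining 10 scored between 54.5 and 222. Their windows had a median GC content of 45.5%, 4 of 14 were island-like, and 5 held the ZFP57 hexamer anywhere in the peak. In 9 of the 14 the peak held a sequence that encodes the C2H2 linker, as in the Zfp930 stretch above, with 12 copies at Zfp420, 11 at Zfp2 and 10 each at Zfp930 and Zfp950. Linkers were found in 20 of the 435 peaks (4.60%), against 0.0775% at active starts and 3.95% far from starts, and 9 of these 20 were at predicted genes with Gm symbols, led by Gm17404 with 19. Where only genes with their own 5′ end within 1 kb were counted, zinc finger genes were 1.10% of the genes with such a peak (0.429 to 2.80, which includes their 1.80% of all genes), against 3.15% otherwise, so their excess over all genes did not hold at gene 5′ ends. At internal starts were 10 of the 14 peaks, against 52 of the 334 outside the 3 groups.

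Of 30 heat shock genes, 2 had such a peak (6.67%, 1.85 to 21.3, which includes the 1.99% of all genes), or 2 of the 10 with KAP1 at a start (20%, 5.67 to 51, which includes 11.7%). They were Hspa1a (chr17:35106756-35109699, score 3100) and Hspa1b (chr17:35093909-35096716, score 2937, rank 170 of 12470), which encode the inducible HSP70 chaperones. Both centres were in the coding exon, 841 and 868 bp from the start, in H3K9me3 regions of 2622 and 2960 bp, with 37 CpG in the central 300 bp of each, and neither overlapped a polymerase peak in control or Kap1 KD cells. The starts of this pair are 12.9 kb apart and their peaks share 99.0% of 2480 aligned bases, so that reads from 1 copy may have been placed at the other; how such reads were treated is not given in the sources used here. The other 8 heat shock genes with KAP1 at a start had it with an active mark alone. Among germ cell genes, 4 of 64 had a peak (6.25%, 2.46 to 15.0, where 1.99% of all genes did), or 4 of the 8 with KAP1 at a start (50.0%, 21.5 to 78.5, where 11.7% did): Fkbp6 (2022), a cochaperone of meiosis and also on the imprinted list, Boll (203), Dpep3 (138) and Stag3 (99.3), a meiotic cohesin subunit that shares its peak with Gpc2. Of 1441 olfactory and vomeronasal receptors 1 had a peak, Olfr94 (1033), which was 0.0694% of the list against 1.99% of all genes.

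Of the lists, 5 had no such peak, where 1.99% of all protein-coding genes had one. No replication-dependent histone gene (0 of 67) and no ribosomal protein gene (0 of 83) had a peak, although 42 of each had KAP1 at a start, with an active mark alone at 38 and 40. Liver genes (0 of 31, with KAP1 at 3), heterochromatin and KAP1 partner genes (0 of 23, with KAP1 at 7, with an active mark at each) and clustered protocadherins (0 of 24, with KAP1 at none) had none either; the Wilson interval for a share of 0 runs to 5.42%, 4.42%, 11.0%, 14.3% and 13.8% of these lists, which in each case includes the share of all genes. Against the 11.7% of all genes with KAP1 at a start, the intervals for 0 of 42 histone and 0 of 42 ribosomal protein genes run to 8.38%. Most of the genes with a peak, 339 of 445, were on none of the lists.

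PolII peaks were rare at these sites in control and Kap1 KD cells alike. In control cells 7 of 435 overlapped a PolII peak (1.61%, 0.782 to 3.28), where 16.8% of all KAP1 peaks did, 55.5% at active starts (a difference of -53.9 percentage points, -55.9 to -51.3), 17.5% at unmarked starts and 0.880% in H3K9me3 far from starts (0.729, -0.166 to 2.42). In Kap1 KD cells 12 of 435 did (2.76%, 1.59 to 4.76), where 28.6% of all KAP1 peaks did, with 79.1% at active starts (-76.4, -78.3 to -73.8), 32.8% at unmarked starts and 3.07% far from starts (-0.309, -1.62 to 1.75). The Kap1 KD list is the longer one, with 12862 peaks against 5015. With its 5015 highest-scoring peaks alone, 4 of the 435 (0.920%, 0.358 to 2.34) overlapped one, and 50.7% at active starts. The shares were below those of active starts beyond the counting intervals, while the intervals of the differences from H3K9me3 peaks far from starts include 0, and a difference between control and Kap1 KD was not detectable with 1 library each.

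**Figure D5:**
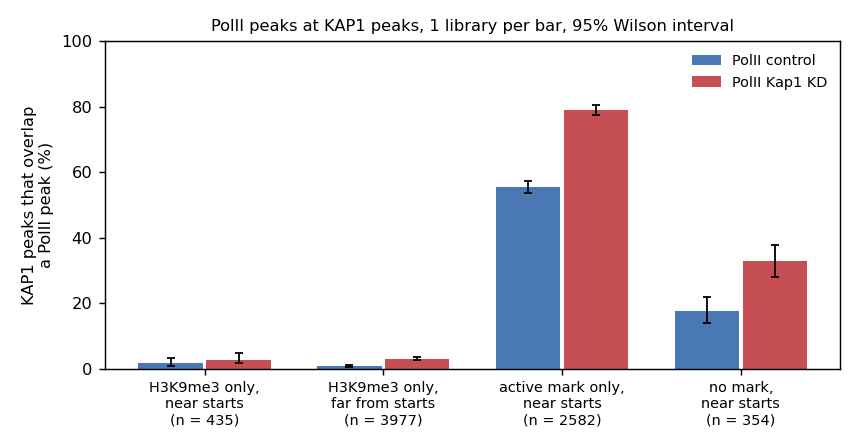
Share of KAP1 peaks that share at least 1 bp with a PolII peak of control or Kap1 KD cells (y axis, percent, bars from 0), for 4 kinds of KAP1 peaks named with their number on the x axis; error bars are 95% Wilson intervals over peaks, with 1 library behind each colour. Both bars stay under 5% for peaks in H3K9me3 alone, near or far from starts, and reach 55.5% and 79.1% at active starts.

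Of the 14 peaks with PolII, 5 had it in both libraries, 2 in control alone and 7 in Kap1 KD alone. In both were Mcts2, a retrogene, where the control peak of 5835 bp and the Kap1 KD peak of 1388 bp ranked 421 of 5015 and 4356 of 12862, 2310014L17Rik, where the Kap1 KD peak of 7525 bp ranked 278 and the control peak of 1241 bp ranked 1108, D14Abb1e, Gm7536 and BC107364. Control alone had the neuronal membrane protein gene Nnat (a peak of 583 bp, rank 3457) and Gm5453 (322 bp, rank 4455), both low in the list. Among those with Kap1 KD alone were Gm17404, Hsf4, a heat shock factor of the lens, 4930404N11Rik, Nutf2-ps1, Parp12 and Gm10068, with ranks from 1512 at 4930404N11Rik to 12753 at Gm10068 and, at Gm17404, Gm10068 and Parp12, an overlap of under 10% of the KAP1 peak. A single library on each side cannot tell such differences from the spread between libraries.

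PolII was also rare at the 5′ ends of the genes, though less so over their whole length, more often in the longer Kap1 KD list. Of the 363 genes with such a peak within 1 kb of the 5′ end and no KAP1 peak there with an active mark alone, 6 had PolII within 250 bp of the 5′ end in control cells (1.65%, 0.760 to 3.56) and 6 in Kap1 KD cells. Of the 2741 genes with KAP1 and an active mark alone at the 5′ end, 53.5% and 77.4% did, and of the 18870 genes with no KAP1 within 1 kb of it, 7.37% and 15.6%. PolII anywhere over the gene was found at 24 of the 363 (6.61%) in control and 55 (15.2%) in Kap1 KD cells, against 11.1% and 22.5% of the genes without KAP1. H3K27ac lay somewhere over the gene at 105 of the 363 (28.9%), against 41.6% of all genes and 34.8% of those without KAP1. Within 250 bp of the 5′ end 0 of the 363 had it, against 19.95% of all genes and 14.62% of those without KAP1. This 0 follows largely from the rule, which barred H3K27ac from the KAP1 peak. The lower share over the gene is therefore in part fixed by the selection.

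PolIII was rare as well. The PolIII lists held 2772 peaks in control and 431 in Kap1 KD cells. In control cells 3 of 435 peaks overlapped a PolIII peak (0.690%), at Nnat, BC107364 and Tgfb2, a growth factor gene, where 2.63% of all KAP1 peaks did, and in Kap1 KD cells 0 of 435 did (which allows a share of up to 0.875%, the upper Wilson bound), where 1.51% of all KAP1 peaks did. In all, 420 of the 435 peaks (96.6%) overlapped no polymerase peak of any of the 4 lists. The peak numbers in these lists have gaps, as if calls had been taken out before deposit: 31.4% of the numbers are missing from the control PolII list and 22.6% from the Kap1 KD list. Of the peaks without control PolII, 348 lay between 2 consecutive numbers, where no call is missing, and 80 in a gap or at a chromosome end, and for Kap1 KD PolII the counts were 383 and 40. For PolIII, 256 and 261 of the peaks fell in such gaps in control and Kap1 KD cells, so the PolIII counts are the less certain.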

How the data were processed

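ChIP-seq lists of 8 Hepa 1.6 libraries, 1 per group, were used; the 5 inputs had no list. Per the study's methods and the labels, the authors mapped reads with Bowtie to mm9 and called KAP1 and PolII with MACS against total input and histone marks with ChIP-Part; the PolIII caller and the treatment of reads with several matches are not given in the sources used here. The deposited files hold positions and, in 1 column, a score, used for ranking only. Depth is unknown. Overlap meant at least 1 bp, starts came from GENCODE M1 (45974 positions of 22372 genes), and sequence from the mm9 genome (NCBIM37; no repeat annotation was used). Island-like and motif calls used 300 bp around the peak centre. Python 3.11.15, pandas 2.3.3, pysam 0.24.0, Biopython 1.88 and SciPy 1.17.1 were used, and functions were tested on simulated data. The peaks and gene lists were chosen with earlier results of these data known. Genes were named by score (the 10 highest, at most 4 per list, at most 12 with a polymerase peak), by the 5 widest H3K9me3 regions and by nearness to the 1 kb limit, plus Hspa1a, Hspa1b and Trim28; other members of a list are named as its content, and Gm10068, D14Abb1e and Parp12 complete the peaks with PolII. No test between conditions was made. Values of a few genes that the rule names are not reported here.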

Additional observations from a re-analysis of the deposited data

How the results depend on the processing

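Of 60 alternatives, 42 left the value within its counting interval, or the number of peaks within 1.5 times and 18 moved it; these values have no test and the cause was not tested. With centres within 250 bp of a start there were 190 peaks, with Kap1 KD PolII at 1.05%, a median GC content of 70.5% and a median H3K9me3 width of 960 bp. Zinc finger genes were then 0.535% of the genes (0.0945 to 2.97, which includes their 1.80% of all genes), where the main value was 3.15% (1.88 to 5.21). With H3K9me3 over at least 50% of the KAP1 peak, the median H3K9me3 width was 1525 bp and the median score 424; where the peak had to overlap the start, the median score was 382. With starts taken as gene 5′ ends alone, zinc finger genes were 1.08% of the genes (0.422 to 2.75). They were 1.10% (0.429 to 2.80) counting genes whose own 5′ end lay within 1 kb, and both intervals include 1.80%. PolII covered at least 50% of the KAP1 peak at 0.460% (control) and 0.690% (Kap1 KD) of peaks; with PolII peaks above their list's median score the shares were 0.690% and 1.15%, and with the Kap1 KD list cut to the length of the control list 0.920%. The GC median was 62.6% over whole peaks and 65.0% over 1 kb, and H3K9me3 within 10 kb to each side had a median of 1680 bp. No paired analysis was possible because each group has 1 library. Shares of peaks do not measure occupancy, and read depth, which sets how many peaks a list holds, is unknown.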
